A study of Macaca fascicularis with 4 samples.

Results

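Ion channels are membrane proteins that let potassium, sodium, calcium, chloride or mixed cations cross a cell or organelle membrane. Voltage-gated channels open when the membrane potential changes. They carry the action potential of excitable cells, and in skeletal muscle a voltage-gated calcium channel also acts as the sensor that couples the action potential to calcium release and contraction. Liver and fat cells do not fire action potentials of that kind, and are known for potassium channels that set the resting potential, for endosomal and lysosomal chloride carriers, and for TRP channels, which admit calcium, magnesium or sodium in response to lipids, temperature or other signals.

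The genes described here are the 85 named genes, of 13982 in the files, whose symbols follow the naming patterns of the potassium (KCN), sodium (SCN), calcium (CACN), chloride (CLCN) and TRP (TRPC, TRPM, TRPV) channel families. They were picked by the pattern of their names and not by a cut on any measured value, though earlier results of these data were known. The pattern leaves out the alpha-2-delta subunits of calcium channels (CACNA2D1 to CACNA2D4), which are given separately. The RefSeq table of the assembly T2T-MFA8v1.1 holds 158 symbols of the same form, among them all 85; genes of these families outside the 85 names were not analysed here.

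The crab-eating macaque, Macaca fascicularis, was the source of 4 libraries of full-length RNA, 1 each of muscle, liver, oWAT and sWAT, the last 2 being white adipose tissue (WAT). The deposited tables call these 2 tissues eWAT and iWAT, and the sample labels, oWAT and sWAT, were followed. Each library was made from RNA of 5 monkeys that was pooled by tissue and read on the PacBio Sequel II; the sources used here give no genotype, age or treatment. With 1 library per tissue there was no replicate spread and no test: ratios below compare these libraries, and their intervals cover counting error only. A lower count in a tissue library can come from fewer cells of a type or from less RNA per cell, and these cannot be told apart.

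Counts assigned to named genes totalled 383896 to 439872 per library, and levels are given as CPM, the count scaled to the library total, on which 1 count was worth 2.27 to 2.60. The labelled tissues were checked against marker genes. The 6 myofibre markers summed to 24485 counts in muscle and to 1 to 21 in the others. The 6 hepatocyte markers summed to 83119 counts in liver and to 16 to 308 in the others, where all but 1 count came from TF. The 6 adipocyte markers summed to 2780 oWAT counts and 2471 sWAT counts, against 183 in muscle and 5 in liver. The 5 mesothelial markers summed to 1500 counts in oWAT and 8 in liver and were all at 0 in muscle and sWAT.

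Channel transcripts were scarce. Counts over the 4 libraries had a median of 12 for the 85 channel genes and 33 for all named genes. Of the channel genes 59 were seen in muscle, 37 in liver, 53 in oWAT and 53 in sWAT, or 69.4%, 43.5%, 62.4% and 62.4%, where all named genes stood at 80.9%, 78.0%, 86.0% and 83.2% in the same order. Only 19 (22.4%) had counts in all 4 libraries, against 63.7% of all named genes, and 30 (35.3%) had counts in 1 library, against 13.0%. A count of 0 allows up to 3 counts, or 6.82 CPM in muscle, 6.86 in liver, 7.56 in oWAT and 7.81 in sWAT, so an unseen channel may be present below that level.

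Summed over the 85 genes, muscle had 1394 channel counts, liver 387, oWAT 465 and sWAT 390. On the CPM scale that is 3169 in muscle (exact 95% Poisson interval 3005 to 3340), 884 in liver (798 to 977), 1172 in oWAT (1068 to 1283) and 1016 in sWAT (918 to 1122). The muscle sum was 3.58-fold that of liver (3.20 to 4.02). CACNA1S and CACNB1 together supplied 53.0% of the muscle channel counts, and without them the muscle sum was 1489 CPM, still the highest of the 4. The order of the other libraries was not stable: the liver sum lay below both WAT sums on the CPM scale, but above both after TMM scaling, which trims extreme log ratios before it matches libraries (1318 in liver, 870 in oWAT and 837 in sWAT) or by DESeq2's size factors (1302, 869 and 857).

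**Figure D1:**
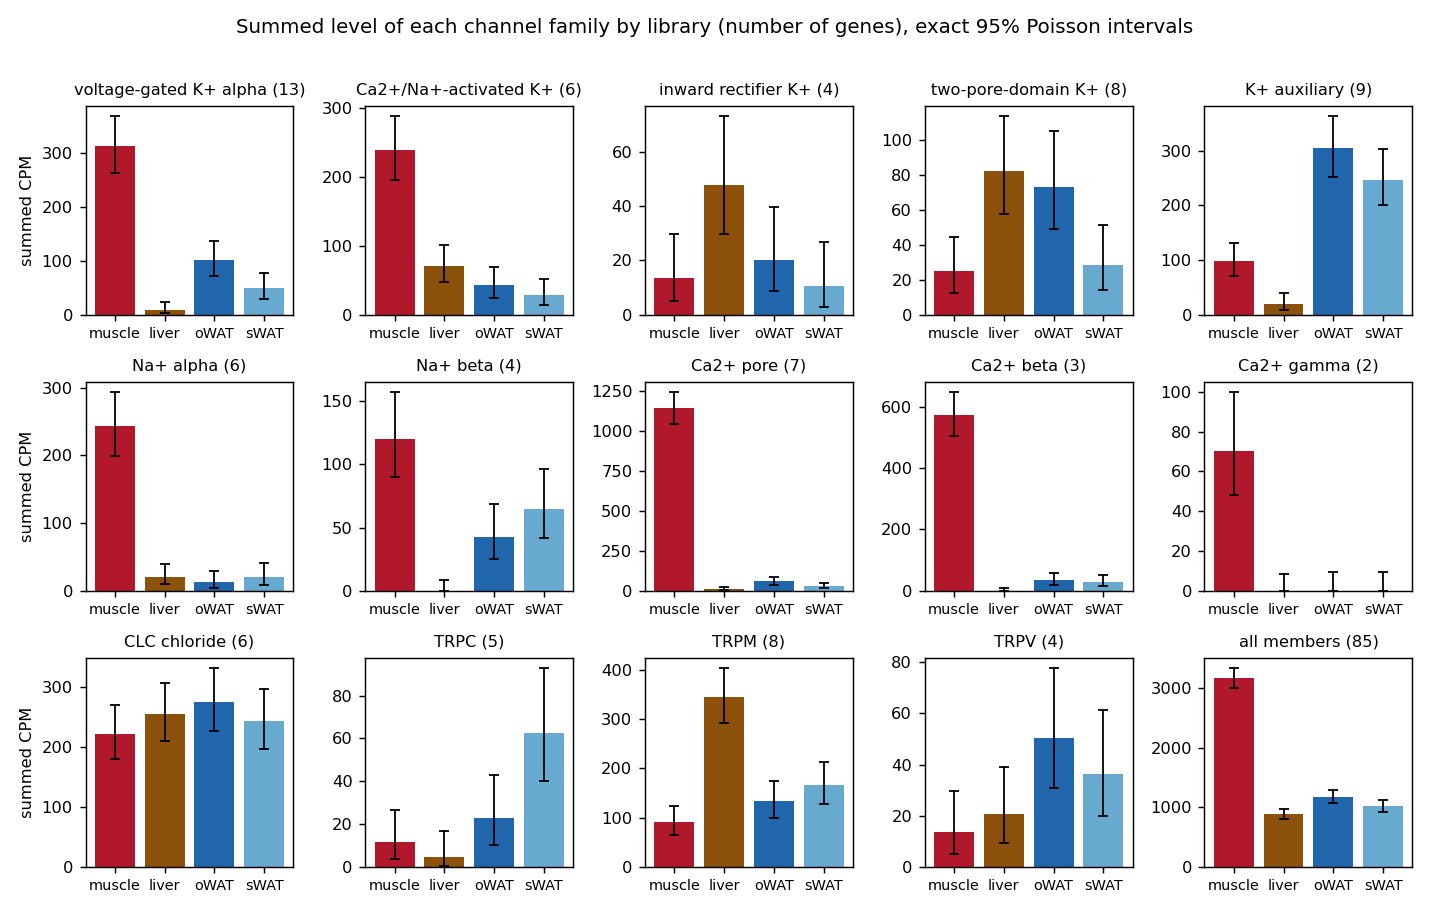
Summed CPM of each of 14 channel families and of all 85 genes in the 4 libraries (bars, linear axis from 0, a scale of its own per panel; error bars are exact 95% Poisson intervals; number of genes in brackets). Muscle stands highest in 7 families of potassium, sodium and calcium channel subunits. Liver stands highest in TRPM (345 CPM), inward rectifier K+ (48.0) and two-pore-domain K+ (82.3, with oWAT at 73.1). The K+ auxiliary subunits stand highest in oWAT and sWAT (305 and 247 CPM), TRPV in oWAT (50.4) and TRPC in sWAT (62.5). The CLC genes lie between 221 and 275 CPM in all 4.

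Of the 85 genes, 37 had at least 10 counts in 1 library, and most of these carry the results that follow. A gene counts as called higher in one library over another if its count in the first reached 10 and the lower bound of the exact 95% Clopper-Pearson interval of the CPM ratio was above 2. Against 0 counts the fold is given as "at least", with 3 counts put in for the 0. Such a fold leaves out the counting error of the higher count, so the lower bound of its interval is smaller.

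**Figure D2:**
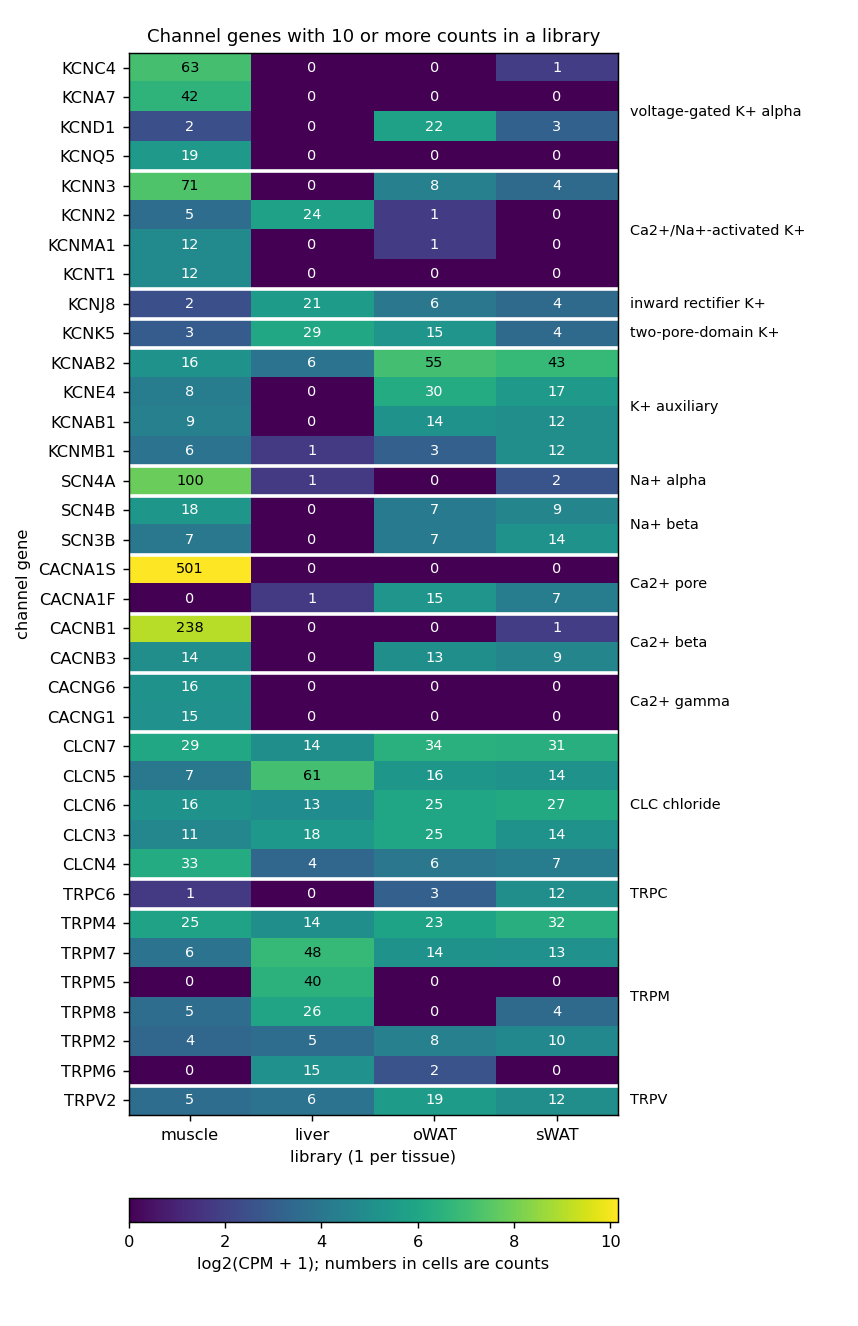
Channel genes with 10 or more counts in a library (36 shown), by family (rows) and library (columns). Colour is log2(CPM + 1) and the number in each cell is the count; CACNA1S and CACNB1 have 501 and 238 muscle counts, and 7 rows, CACNA1S, CACNG1, CACNG6, KCNA7, KCNQ5 and KCNT1 in muscle and TRPM5 in liver, hold counts in a single library.

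Muscle was the library in which channel genes stood apart. Of the 20 channel genes with at least 10 muscle counts, 11 (55.0%) were called higher in muscle than in each of liver, oWAT and sWAT, where the same rule called 6.71% of all 5809 genes with at least 10 muscle counts. Among them were CACNA1S, CACNB1, CACNG1, CACNG6, SCN4A, KCNA7, KCNC4, KCNQ5, KCNN3 and KCNT1. The same 11 were called with TMM scaling and with DESeq2's size factors, which each added CLCN4 and KCNMA1. With those scalings the rule called 7.59% and 7.40% of all genes. With at least 20 counts required the number was 7, without CACNG1, CACNG6, KCNQ5 and KCNT1, where 9.55% of all genes were called. With a bound of 4 it was 6, with CACNG1, CACNG6, KCNN3 and KCNT1 among those lost, where 3.99% of all genes were called.

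Subunits of the calcium channel of the muscle fibre are given first. CACNA1S, the pore and voltage sensor of the skeletal muscle L-type calcium channel, had 501 counts in muscle (1139 CPM) and 0 in liver, oWAT and sWAT. With 3 counts put in for 0, the muscle level was at least 166-fold that of liver, 151-fold that of oWAT and 146-fold that of sWAT. The lower bounds of the 95% intervals were 135, 122 and 118 in the same order. CACNB1, the cytoplasmic beta subunit of the same channel, had 238 counts in muscle (541 CPM) against 0 in liver and oWAT and 1 in sWAT. Its ratio was 208 over sWAT (95% interval 36.9 to 8238), and it was at least 78.9-fold higher than in liver and at least 71.6-fold higher than in oWAT. For both genes muscle alone was high. CACNG1, the gamma subunit of that complex, had 15 counts in muscle and 0 in the other 3, at least 4.36-fold over sWAT. Its relative CACNG6 had 16 counts in muscle and 0 in the other 3, at least 4.65-fold over sWAT.

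The remaining calcium channel genes were not called over each other library in muscle. CACNB3, another beta subunit, had 14 counts in muscle against 0 in liver, 13 in oWAT and 9 in sWAT, so muscle was called over liver (at least 4.64-fold) but had 0.971 times the oWAT level, with an interval that holds 1. Muscle held none of the other CACNA1 genes. CACNA1F, an L-type pore subunit best known from photoreceptors of the retina, had 15 oWAT counts and 7 sWAT counts, against 0 in muscle and 1 in liver. CACNA1C, the L-type pore of cardiac and smooth muscle, had 4 counts in oWAT and 3 in sWAT and 0 in muscle and liver.

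Partners of the calcium channel outside the name pattern were also counted. RYR1, the calcium release channel that CACNA1S controls, had 126 counts in muscle against 0 in liver and 1 each in oWAT and sWAT. STAC3, an adaptor needed for excitation-contraction coupling, had 119 counts in muscle against 2 in liver, 1 in oWAT and 3 in sWAT. The alpha-2-delta subunit CACNA2D1 behaved otherwise: with 59 counts in muscle it was 29.3-fold higher than in liver (2 counts, 7.77 to 248) and 5.15-fold higher than in sWAT (10 counts, 2.61 to 11.3), but only 2.13-fold above oWAT (25 counts, 1.31 to 3.55), and it was not called over each other library.

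Sodium channel genes differed in where they were highest. SCN4A, the sodium channel that carries the action potential of skeletal muscle fibres, had 100 counts in muscle (227 CPM) against 1 in liver, 0 in oWAT and 2 in sWAT. The ratio was 99.5 over liver (17.5 to 3968) and 43.6 over sWAT (11.8 to 365), and at least 30.1-fold over oWAT. Muscle stood alone for this gene. SCN4B, which encodes a beta subunit, had 18 counts in muscle against 0 in liver, 7 in oWAT and 9 in sWAT. It was called over liver (at least 5.97-fold) but not over oWAT (2.32-fold, 0.924 to 6.57) or sWAT (1.75-fold, 0.745 to 4.41). SCN3B had its highest count in sWAT, with 7 counts in muscle, 0 in liver, 7 in oWAT and 14 in sWAT. Its intervals of muscle over sWAT (0.436-fold, 0.149 to 1.16) and over oWAT (0.902-fold, 0.270 to 3.01) both hold 1. Beta subunit counts summed to 53 in muscle, 0 in liver, 17 in oWAT and 25 in sWAT.

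The potassium channels of muscle were spread over several families. KCNN3, a small-conductance channel opened by calcium, had 71 counts in muscle (161 CPM) against 0 in liver, 8 in oWAT and 4 in sWAT. It was 8.01-fold higher than in oWAT (3.85 to 19.3), 15.5-fold higher than in sWAT (5.79 to 58.4) and at least 23.5-fold higher than in liver. This gene was the 1 of the 11 with more than 3 counts in another library. KCNC4, a rapidly inactivating Shaw-type channel, had 63 counts in muscle against 0 in liver and oWAT and 1 in sWAT, a ratio of 55.0 over sWAT (9.52 to 2206). KCNA7, a Shaker-type channel, had 42 counts in muscle and 0 in liver, oWAT and sWAT, at least 12.2-fold over sWAT. KCNQ5, of the family that carries the M-type current, had 19 counts in muscle and 0 elsewhere, at least 5.53-fold over sWAT. KCNT1, a sodium-activated channel, had 12 counts in muscle and 0 elsewhere, at least 3.49-fold over sWAT. KCNMA1, the large-conductance calcium-activated (BK) channel, also had 12 muscle counts, but its 1 count in oWAT put the lower bound at 1.60 (ratio 10.8, to 463), and it was not called.

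**Figure D3:**
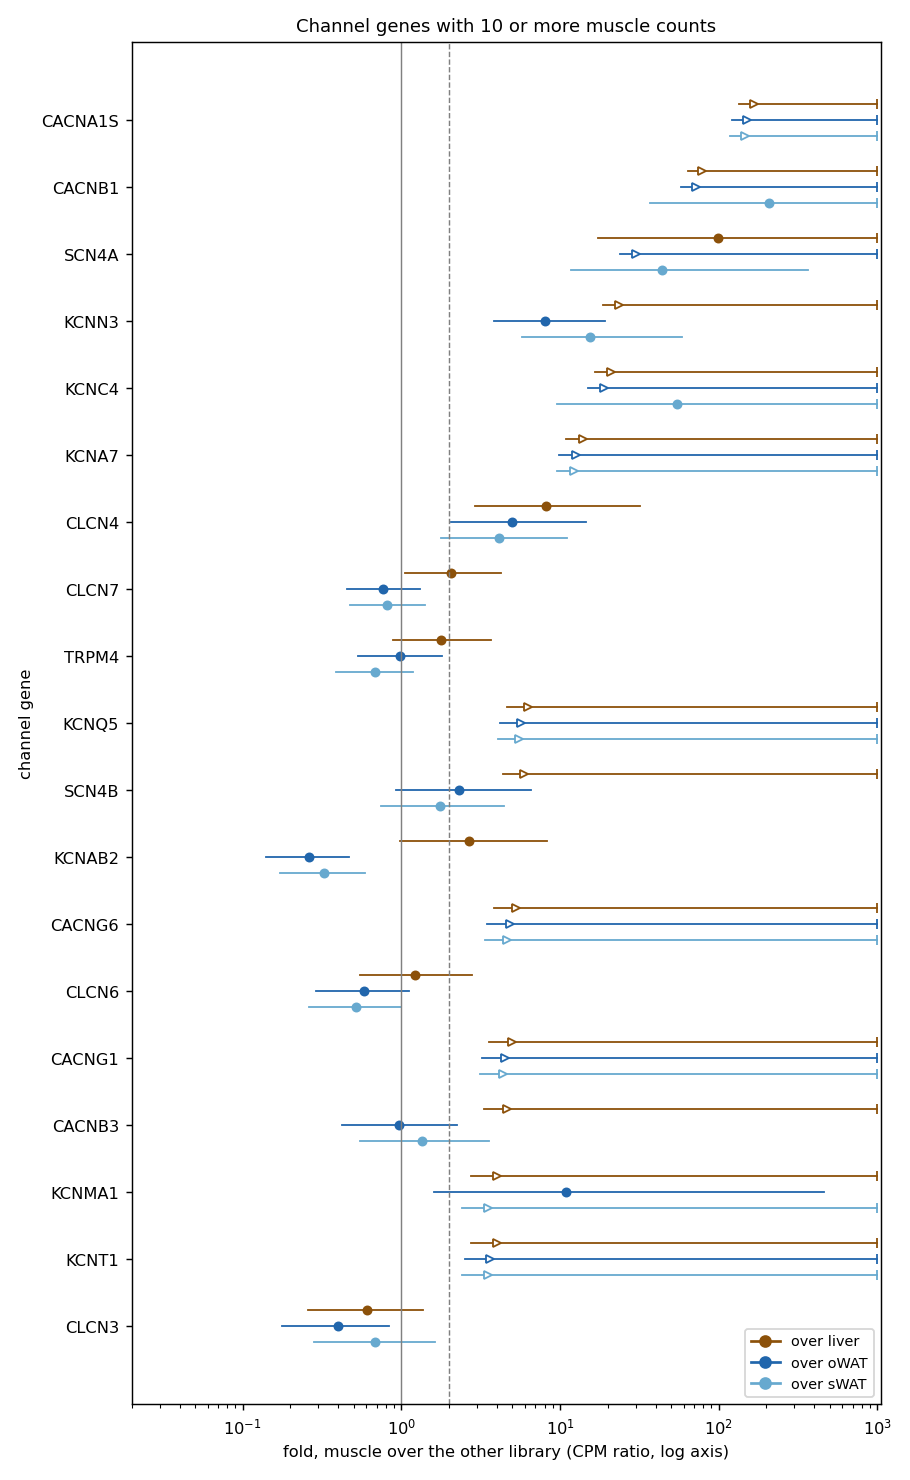
Fold of muscle over liver, oWAT and sWAT (CPM ratio, log axis) for channel genes with at least 10 muscle counts (19 shown), ordered by muscle count. Filled points are ratios, open triangles are folds with 3 counts put in for 0, lines are exact 95% intervals cut at 1000, and the dashed line marks 2; in 10 of those shown all 3 intervals lie above it, and CLCN3, KCNAB2, CLCN6, CLCN7 and TRPM4 lie below 1 against both oWAT and sWAT.

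Muscle was also called over liver in CACNB3, SCN4B, KCNMA1 and CLCN4, which were not called over every other library. In that comparison, which was chosen once values were known, 15 of the 20 genes (75.0%) were called, where the rule called 23.0% of all genes. The median log2 ratio of muscle over liver was 1.58 over the 48 channel genes with at least 10 counts in all, against 0.48 over the 10127 genes with that many. Muscle over oWAT gave -0.53 for the channel genes and -0.54 for all genes, and muscle over sWAT -0.24 and -0.37, so the medians of the channel genes over fat lay close to those of all genes. TMM scaling lowers each log2 ratio of muscle over liver by 0.44 and raises those over oWAT by 0.56 and over sWAT by 0.41.

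Other cell types in the muscle library were followed through their markers. The Schwann cell markers summed to 88 counts in muscle against 16 in liver, 39 in oWAT and 18 in sWAT, of which the widely expressed NCAM1 and MBP made up 54 and 26 in muscle. Neuronal markers summed to 1 count in muscle, and smooth muscle and pericyte markers to 361 in muscle, 32 in liver, 331 in oWAT and 398 in sWAT. SCN7A, a sodium channel relative, had 5 counts in muscle and 5 in liver and 0 in oWAT and sWAT. The part of these cell types in the muscle values was not tested.

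How often channel genes were called in liver depended on the scaling. Of 12 channel genes with at least 10 liver counts, 1 (8.33%), TRPM5, was called on the CPM scale over each of muscle, oWAT and sWAT, where the rule called 10.8% of 4944 genes. TRPM5, a cation channel opened by calcium and known from taste cells, had 40 counts in liver (91.4 CPM) and 0 in muscle, oWAT and sWAT. The liver level was higher than that of muscle by at least 13.4-fold, than that of oWAT by at least 12.1-fold and than that of sWAT by at least 11.7-fold. In the RefSeq table its locus overlaps the coding gene TSSC4 and LOC135966977, which is not listed as coding and whose counts were not looked at. The use of strand in counting is not given, and the part of either neighbour in the TRPM5 counts was not tested. TSSC4 itself stood at 7 counts in liver against 13 in muscle, 9 in oWAT and 3 in sWAT; liver was not its highest library.

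Further liver-leaning genes failed 1 or more pairings, and the number called depended on the scaling: it was 7 with TMM and 7 with DESeq2's size factors, which called CLCN5, KCNJ8, KCNN2, TRPM6, TRPM7 and TRPM8 besides TRPM5. With those scalings the rule called 15.6% and 15.4% of all genes. With the 10 most abundant genes of each library dropped from the totals it was 3, with CLCN5 and TRPM8 added, where 11.6% of all genes were called. With the libraries thinned to the smallest it was 2, with CLCN5 added, where 11.4% of all genes were called.

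Among the TRPM genes, TRPM7, a channel fused to a kinase that admits magnesium and zinc, had 48 counts in liver (110 CPM) against 6 in muscle, 14 in oWAT and 13 in sWAT. It was 8.04-fold higher than in muscle (3.44 to 23.0), 3.11-fold higher than in oWAT (1.69 to 6.11) and 3.24-fold higher than in sWAT (1.73 to 6.52). Liver was highest, but the bounds over fat stopped short of 2. TRPM8, the cold and menthol receptor of sensory neurons, had 26 counts in liver against 5 in muscle, 0 in oWAT and 4 in sWAT, 5.23-fold over muscle (1.98 to 17.4) and 5.70-fold over sWAT (1.98 to 22.5). TRPM6, the close relative of TRPM7 that serves magnesium uptake in gut and kidney, had 15 counts in liver against 0 in muscle, 2 in oWAT and 0 in sWAT, 6.80-fold over oWAT (1.58 to 61.3). TRPM4, the relative of TRPM5, did not share its pattern, at 14 counts in liver, with muscle at 25, oWAT at 23 and sWAT at 32. Summed over the 8 TRPM genes, liver had 345 CPM (292 to 405), against 90.9 in muscle (65.0 to 124), 134 in oWAT (100 to 175) and 167 in sWAT (128 to 213), and liver was also the highest with TMM scaling, DESeq2's size factors and totals without the most abundant genes.

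Potassium channels with liver as the highest library were KCNK5, KCNN2 and KCNJ8 among those with at least 10 counts. KCNK5, a two-pore-domain channel sensitive to pH and cell volume, had 29 counts in liver (66.3 CPM) against 3 in muscle, 15 in oWAT and 4 in sWAT. It was 9.72-fold higher than in muscle (3.01 to 49.8) and 6.36-fold higher than in sWAT (2.23 to 24.9), but 1.75-fold above oWAT (0.910 to 3.52), an interval that holds 1. KCNN2, a small-conductance calcium-activated channel and relative of KCNN3, had 24 counts in liver against 5 in muscle, 1 in oWAT and 0 in sWAT, 4.83-fold over muscle (1.80 to 16.2). KCNN2 and KCNN3 thus had opposite leanings, since KCNN3 had 0 counts in liver and 71 in muscle. KCNJ8, the pore of an ATP-sensitive potassium channel, had 21 counts in liver against 2 in muscle, 6 in oWAT and 4 in sWAT, 10.6-fold over muscle (2.58 to 92.9) and 3.17-fold over oWAT (1.24 to 9.61). Its regulatory partner ABCC9 had 42 counts in liver against 20 in muscle, 5 in oWAT and 18 in sWAT.

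**Figure D4:**
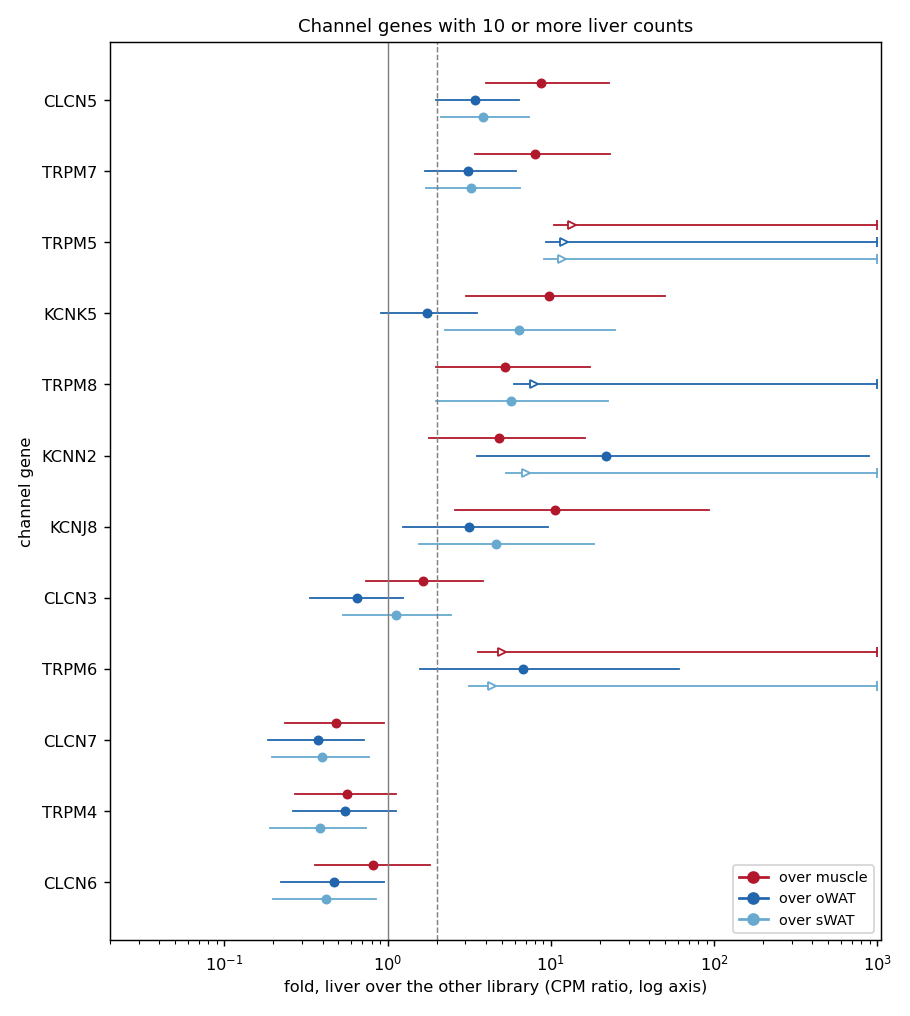
Fold of liver over muscle, oWAT and sWAT (CPM ratio, log axis) for the 12 channel genes with at least 10 liver counts, ordered by liver count. Filled points are ratios, open triangles are folds with 3 counts put in for 0, lines are exact 95% intervals cut at 1000, and the dashed line marks 2; all 3 intervals lie above 2 in TRPM5 alone, and all 3 ratios lie below 1 in CLCN7, TRPM4 and CLCN6.

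In comparisons chosen once values were known, liver was called over muscle in 6 of the 12 genes (50%; CLCN5, KCNJ8, KCNK5, TRPM5, TRPM6 and TRPM7), where the rule called 17.7% of all genes. Liver was called over both WAT libraries in 2 of 12 (16.7%; KCNN2 and TRPM5), where it called 11.8%. The number for both WAT libraries was 7 with TMM and 7 with DESeq2's size factors, where 17.9% and 17.7% of all genes were called. The median log2 ratio of liver over oWAT was -1.21 for the 48 channel genes and -0.98 for all genes, and that of liver over sWAT was -1.13 and -0.75. TMM scaling raises every log2 ratio of liver over oWAT by 1.01 and over sWAT by 0.86.

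On the CPM scale, the CLC genes were the family with the most even spread. CLCN1 fits the name pattern but is not among the channel genes counted here, so the sums leave it out. The 6 genes CLCN2 to CLCN7 encode a surface chloride channel (CLCN2) and exchangers of chloride for protons in endosomes and lysosomes, and their summed level was 254 CPM in liver (209 to 305), 221 in muscle (179 to 269), 275 in oWAT (226 to 331) and 242 in sWAT (196 to 297). Those intervals overlap; with TMM scaling the liver sum was 378, that of muscle 242, that of oWAT 204 and that of sWAT 200, so the place of liver in that order depends on the scaling. CLCN5, an endosomal exchanger best known from the kidney, leaned to liver with 61 counts (139 CPM) against 7 in muscle, 16 in oWAT and 14 in sWAT. It was 8.76-fold higher than in muscle (4.0 to 22.7), 3.46-fold higher than in oWAT (1.97 to 6.42) and 3.82-fold higher than in sWAT (2.11 to 7.40), which missed the call by the bound over oWAT. CLCN4 leaned to muscle with 33 counts against 4 in liver, 6 in oWAT and 7 in sWAT, 8.21-fold over liver (2.92 to 31.9) and 4.11-fold over sWAT (1.79 to 11). CLCN3 had 11 counts in muscle, 18 in liver, 25 in oWAT and 14 in sWAT. The lysosomal CLCN7 had 29 counts in muscle, 14 in liver, 34 in oWAT and 31 in sWAT, and CLCN6 had 16, 13, 25 and 27 in the same order. The last 3 genes were called in no comparison made here.

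No channel gene was called in both fat libraries over both other tissues. Of 10 channel genes with at least 10 counts in both oWAT and sWAT, 0 were called over both liver and muscle, where the rule called 4.22% of 5520 genes. With a bound of 1 in place of 2 the number was 1, KCNAB2, where 21.1% of all genes were called. A further comparison, chosen once values were known, set fat against liver only, and 3 of the 10 (30%) were called, KCNAB1, KCNAB2 and KCNE4, where the rule called 20.9% of all genes. All 3 encode auxiliary subunits of potassium channels rather than pores. With TMM scaling or DESeq2's size factors KCNE4 alone was called, and the rule called 8.89% and 9.08% of all genes.

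KCNAB2, a cytoplasmic beta subunit that binds Shaker-type channels and NADPH, had an oWAT count of 55 (139 CPM) and an sWAT count of 43 (112 CPM), against liver at 6 and muscle at 16. Its ratio over liver was 10.1 in oWAT (4.36 to 28.7) and 8.17 in sWAT (3.46 to 23.5). KCNE4, a single-pass subunit that damps several potassium channels, had oWAT and sWAT counts of 30 and 17 against liver at 0 and muscle at 8, at least 11-fold in oWAT and at least 6.46-fold in sWAT over liver. Over muscle, KCNAB2 was 3.81-fold higher in oWAT (2.15 to 7.12) and 3.08-fold in sWAT (1.70 to 5.86), and KCNE4 was 4.16-fold higher in oWAT (1.86 to 10.5), while its sWAT interval over muscle (2.43-fold, 0.996 to 6.52) holds 1. KCNAB1, the relative of KCNAB2, had oWAT and sWAT counts of 14 and 12 against liver at 0 and muscle at 9, at least 5.15-fold in oWAT and at least 4.56-fold in sWAT over liver. Summed over the 9 auxiliary genes, oWAT had 305 CPM (253 to 364) and sWAT 247 (200 to 303), against 20.6 in liver (9.40 to 39.0) and 97.8 in muscle (70.7 to 132). That order of fat over muscle over liver was the same with TMM scaling and with DESeq2's size factors.

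TRPV2, a cation channel of macrophages and muscle, had oWAT and sWAT counts of 19 and 12 against liver at 6 and muscle at 5, and its ratio over liver was 3.49 in oWAT (1.34 to 10.7) and 2.28 in sWAT (0.792 to 7.40). Its ratio over muscle was 4.21 in oWAT (1.52 to 14.4), and it was not called in both fat libraries. TRPM2, a cation channel gated by ADP-ribose, had oWAT and sWAT counts of 8 and 10 against liver at 5 and muscle at 4. Macrophage markers summed to oWAT and sWAT counts of 547 and 406 against liver at 206 and muscle at 175, all 5 of them seen in each library. Their part in these values was not tested.

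Between the fat libraries, channel genes differed beyond counting error about as often as genes at large. Of 18 with at least 10 counts in oWAT or sWAT, 4 (22.2%) had an interval of oWAT over sWAT that leaves out 1, against 22.7% of 7040 genes, and the ratios ran from 0.242 to 7.09. Of the 14 genes with at least 10 oWAT counts, 1 (7.14%) was called over sWAT, where the rule called 1.43% of 6563 genes. That gene was KCND1, the pore of an A-type potassium channel, with 22 counts in oWAT and 3 in sWAT, a ratio of 7.09 (2.13 to 37.0). It had 2 counts in muscle and 0 in liver, so oWAT alone was high. The call was lost with TMM scaling, DESeq2's size factors, totals without the most abundant genes, a 99% interval and a bound of 4. Mesothelial markers moved with it, at 1500 counts in oWAT and 0 in sWAT. The B and plasma cell list summed to 55 and 6, but only 1 of its genes, JCHAIN, had at least 10 counts in all. The part of these cell types in the KCND1 value was not tested.

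No channel gene was called lower in oWAT than in sWAT (0 of the 14 with at least 10 sWAT counts), where the rule called 0.767% of 5997 genes. With a bound of 1 the number was 2, KCNMB1 and TRPC6, where 8.99% of all genes were called. KCNMB1, the beta subunit that pairs with the BK channel in smooth muscle, had 3 counts in oWAT and 12 in sWAT, a ratio of 0.242 (0.0438 to 0.896), beside 1 in liver and 6 in muscle. TRPC6, a channel opened by diacylglycerol, had the same 3 and 12 counts, beside 0 in liver and 1 in muscle. The 6 smooth muscle and pericyte markers, all seen in both, summed to 331 counts in oWAT and 398 in sWAT. That difference came from MYH11, at 75 and 172, and without it the sum was not higher in sWAT. The part of these cell types in the KCNMB1 and TRPC6 values was not tested. In the RefSeq table the KCNMB1 locus lies over that of KCNIP1, which had 1 count in oWAT and 0 in the other libraries. With a bound of 1, KCNK5 (15 counts in oWAT and 4 in sWAT, a ratio of 3.63, 1.16 to 15) joined KCND1 on the oWAT side, where that bound called 16.1% of all genes.

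**Figure D5:**
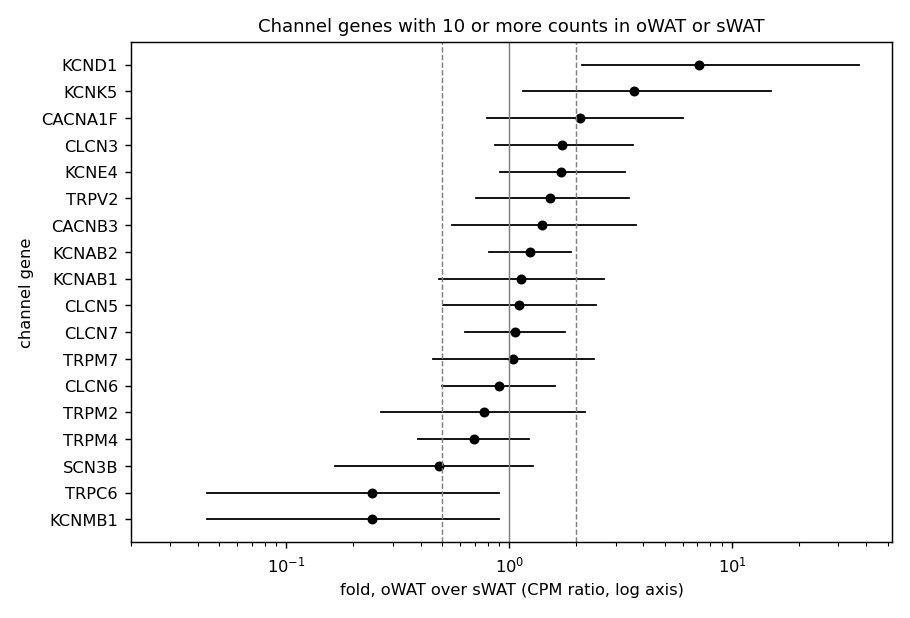
Fold of oWAT over sWAT (CPM ratio, log axis) for the 18 channel genes with at least 10 counts in oWAT or sWAT, with exact 95% intervals (lines). Dashed lines mark 2 and its inverse; the interval of KCND1 lies above 2, those of KCNK5, TRPC6 and KCNMB1 leave out 1, and the other 14 hold it.

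The other 48 channel genes had fewer than 10 counts in each library, and 13 of them had a single count in all. Among voltage-gated potassium pores these included KCNB2, KCNC1, KCND3, KCNH2, KCNH3, KCNQ1 and KCNQ3, with 1 to 12 counts over the 4 libraries; KCNQ1 had 4 in muscle, 1 in liver, 6 in oWAT and 1 in sWAT. The calcium- and sodium-activated KCNN4 and KCNT2 had 16 and 10, and 6 of the KCNT2 counts were in liver. Inward rectifiers were KCNJ1, KCNJ14 and KCNJ16, with 1 to 4 counts, all 4 of KCNJ16 in muscle. Two-pore-domain channels were KCNK1, KCNK2, KCNK3, KCNK4, KCNK6, KCNK10 and KCNK17, with 1 to 14. Auxiliary subunits were KCNAB3, KCNIP1, KCNIP2, KCNIP3 and KCNMB3, with 1 to 13.

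Low sodium channel genes included SCN2B, SCN3A, SCN7A, SCN8A and SCN9A, with 2 to 10 counts, of which all 5 of SCN3A were in sWAT. Low calcium channel genes were CACNA1A, CACNA1C, CACNA1D, CACNA1G, CACNA1H and CACNB2, with 1 to 7; the 3 counts of CACNA1D were all in liver and the 3 of CACNA1G all in oWAT. CLCN2 had 5 counts. Low TRP genes included TRPC1, TRPC4, TRPC5, TRPM1, TRPM3, TRPV1, TRPV3 and TRPV4, with 1 to 16; TRPC1 had 3 in muscle, 0 in liver, 6 in oWAT and 7 in sWAT, and all 5 of TRPC4 were in sWAT. At these counts no ratio between libraries had a lower bound above 2, and in 10 of the 48 genes an interval left out 1. Every pairing of libraries was looked at for each gene. The share among all genes with so few counts was not computed, so the 10 are a description only. KCNAB3, a cytoplasmic beta subunit, had 9 counts in oWAT against 1 in sWAT, 2 in liver and 1 in muscle, with lower bounds of 1.21 over sWAT, 1.03 over liver and 1.38 over muscle.

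Channel genes were more often concentrated in 1 library than genes at large. Among those with at least 10 counts in all, 15 of 48 (31.2%) had 80% or more of their summed CPM in 1 library, against 7.70% of 10127 genes. In the band of 10 to 99 counts it was 12 of 43 (27.9%), against 6.47% of 6704 genes. These shares describe the 4 libraries and are not a test.

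Other ion channel and transport lists, counted by the same rule among members with at least 10 counts in all, gave the calls below. Over all 10127 genes with that many counts, the rule called 3.85% in muscle over each other library, 5.26% in liver, 2.30% in both fat libraries over liver and muscle, and 0.454% lower in oWAT than in sWAT; the lists are short, and their shares are descriptions. Of 10 channel partners 4 were called over each other library in muscle: RYR1, STAC3, FGF13, a modulator of sodium channels (45 counts in muscle against 1 in liver, 9 in oWAT and 8 in sWAT), and LRRC38, a BK channel gamma subunit (43 in muscle and 0 elsewhere). Of 7 sodium pump genes 3 were called in muscle, ATP1A4, ATP1B1 and ATP1B4, with ATP1B1 at 280 counts in muscle against 51 in liver, 47 in oWAT and 16 in sWAT. Of 14 other sodium and cation channels 1 was called, P2RX6 in muscle, with 20 counts there and 0 elsewhere.

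Of 12 other chloride and volume channel genes, BEST3 was called in muscle, ANO1 in liver (81 counts against 16 in muscle, 13 in oWAT and 19 in sWAT), ANO3 in both fat libraries over liver and muscle (11 counts each in oWAT and sWAT against 0), and LRRC8C was lower in oWAT than in sWAT (0 against 12 counts). Of 11 genes of store-operated and mitochondrial calcium entry, ITPR2, the calcium release channel of hepatocytes, was called in liver (105 counts, with muscle at 9, oWAT at 25 and sWAT at 28), and MCUB, an inhibitory subunit of the mitochondrial calcium uniporter, in both fat libraries (oWAT and sWAT counts of 30 and 22 against liver at 2 and muscle at 1). The calcium sensor STIM1 had 138 counts in muscle against 32 in liver, 48 in oWAT and 63 in sWAT and was called over liver.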

How the data were processed

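The deposited files hold gene counts, whole numbers that the authors did not normalize. RNA of each tissue from 5 monkeys was pooled and sequenced on the PacBio Sequel II, per the labels' protocols, and, per the submitters' processing notes, minimap2 2.24 was used. The sources used here do not name the read filters, gene assignment, strand use, treatment of shared reads, genome build or annotation. Genes not listed were taken as 0. Counts that name no gene (14.3% to 19.5% of a file) were left out of the totals.

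Counts were scaled to CPM, so levels are not per transcript length and do not compare different genes, including where plots order genes by count. Folds carry exact 95% Clopper-Pearson intervals (scipy 1.17.1), and sums exact Poisson intervals. Both cover counting error only, since each tissue has 1 library. They treat reads as independent molecules, and where reads are not, they are too narrow even for counting error. The calling rule was run on all genes and tested on simulated data. Log2 medians used counts plus 0.5. Members with at least 10 counts in a library were described singly and the others mainly by counts and ranges; a few members are counted in the sums but not reported here by name or drawn in the gene plots. Alternatives used edgeR 4.0.16 and DESeq2 1.42.0 (R 4.3.3) factors, other thresholds and thinning. Locus overlaps came from the RefSeq table of T2T-MFA8v1.1, in which 14 of the 85 members overlap another coding gene (CACNB1, KCNMA1, KCNMB1 and TRPM5 among those with at least 10 counts). With entries not listed as coding included, 35 of the 85 overlap another gene, among them KCNC4, KCNQ5, CLCN5, TRPM6 and TRPM8. Members, lists and rules were chosen with earlier results of these data known.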

Additional observations from a re-analysis of the deposited data

How the results depend on the processing

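Depth limits these results: 48 of the 85 channel genes stayed under 10 counts in each library, 0 counts allow up to 3, and 1 library per tissue gives no spread between animals. No paired analysis was possible because each tissue has 1 library. Of the alternative counts of genes, 71 counts of called genes and 9 of genes seen stayed within 1.5 times and 28 and 3 did not; of the alternative sums, 4 stayed within the Poisson interval and 16 did not. Folds of the genes called in each comparison, with 0.5 counts added, kept their direction under the 4 other scalings or totals in all 149 values that kept the call and the 7 that lost it, which belong to KCND1, KCNAB1 and KCNAB2.

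Members called in muscle over each other library (11) became 7 with a minimum of 20 counts and 6 with a bound of 4. Those called in liver (1) became 7 with TMM scaling, DESeq2 size factors or a bound of 1, 3 with totals without the 10 most abundant genes and 2 with thinning. That bound of 1 called 16.95% of all genes. The 0 called in both WAT libraries over liver and muscle became 1 with a bound of 1. The 1 called in oWAT over sWAT became 0 with TMM, DESeq2, totals without the most abundant genes, a 99% interval or a bound of 4. In the same order these called 1.22%, 1.13%, 1.27%, 0.975% and 0.503% of all genes. KCND1 kept folds of 5.47 to 5.77 in the first 3 of these, with 0.5 counts added. The number was 2 with a bound of 1. The 0 called in oWAT below sWAT became 2 with a bound of 1.

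Among the comparisons added after the data were seen, both WAT libraries over liver (3) gave 1 with TMM, DESeq2, a minimum of 20 counts or a bound of 4. In the same order these called 8.9%, 9.1%, 27.4% and 8.5% of all genes. With a bound of 1 it gave 5, where 47.3% of all genes were called. Liver over both WAT libraries (2) gave 7 with TMM, DESeq2 or a bound of 1, where 17.9%, 17.7% and 18.45% of all genes were called. It gave 4 with totals without the most abundant genes (12.8% of all genes), 3 with thinning (12.4%) and 1 with a bound of 4 (7.69%). Muscle over liver (15) gave 8 with a minimum of 20 counts (30.3% of all genes) and 9 with a bound of 4 (10.7%). Liver over muscle (6) gave 2 with a bound of 4 (10.9% of all genes).

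With at least 3 counts required, 38 members were seen in muscle, 20 in liver and 34 in sWAT. The summed CPM of members in muscle (3169) was 3477 with TMM, 3440 with DESeq2, 3991 with totals without the most abundant genes and 2715 with unnamed counts in the totals. In liver (884) it was 1318, 1302, 1175 and 715 in the same order, in oWAT (1172) 870, 869, 1284 and 943, and in sWAT (1016) 837, 857, 1199 and 847. TMM and DESeq2 factors, which are estimated from these counts, enlarge liver values against WAT, since both lower the liver total and raise the WAT totals. Which scaling fits these tissues was not tested. Adding the alpha-2-delta genes changed the number of genes called in muscle over liver alone, to 16.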
